A study of Mus musculus with 6 samples.

Results

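Of 60 genes listed for the actin cytoskeleton and cell contraction, 51 had a probe that was named for them and detected, among 10585 such genes in all. A member was taken in by its gene symbol and by being detected, with a detection p of up to 0.05, on 1 or more of 6 arrays, with Diap1 and Mkl2 matched through their current symbols, Diaph1 and Mrtfb. The 51 genes had 99 probes, 1 probe for each of 22 genes and up to 5 probes for each of the other 29, and 88 of the probes were detected on all 6 arrays. The other 9 genes, Actg1, Cnn1, Cnn3, Lmod1, Arpc3, Actr2 and Mkl1 among them, had no probe with their symbol in the annotation used here and were not analysed. All 10585 genes that this annotation named had a detected probe, so genes without a named probe may have probes that were not detected. The arrays compared 3 samples of 3T3-CrT cells that received 5 mM creatine monohydrate (Cr) in growth medium for 3 h with 3 untreated controls. Both groups are mouse 3T3 Tet Off fibroblasts with a stably expressed cDNA of the rabbit creatine transporter (CrT) that ends in a hemagglutinin tag, grown as adherent cultures in medium with serum, G418 and puromycin. The samples were cultures of this cell line, so that the p-values rest on how much such cultures vary. The paper does not say whether they were separate wells or separate experiments. Whether the line is a single clone is not given in the sources used here. Total RNA was hybridized in 1 colour to Illumina Mouse WG-6 v2 arrays, 1 array per sample.

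Actin exists as monomers and as filaments that grow, branch and are cut, and fibroblasts use bundles of filaments with myosin II, called stress fibres, to pull on their surroundings. The state of actin also reaches the nucleus, because monomeric actin holds back the coactivators of the myocardin-related (MRTF) family, which otherwise join serum response factor (SRF) on genes of the cytoskeleton. In immunoblots of the study, membranes were probed again either for α-actinin, which crosslinks actin filaments, or for β-tubulin of the microtubules.

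The median signal of all probes was between 152 and 167 arbitrary units, and between 16396 and 17700 probes per array were detected. Of 12 fibroblast markers 8 were measured, 7 of them detected on all arrays, with a summed signal of 10944 to 16687 in untreated controls and 13557 to 15035 with Cr. The smooth muscle genes Des, Myocd and Kcnmb1 were each detected on 1 Cr array only and Myh11 had no named probe, while Acta2, Actg2 and Smtn, counted in the same list, were detected on all 6 arrays. Between 1 and 4 listed markers of epithelial, endothelial, macrophage or skeletal and cardiac muscle cells were measured per type, and among them only the keratin gene Krt8 was detected on every array. Untreated replicate 1 was the highest or the lowest of the 6 arrays for 45 of the 99 actin cytoskeleton probes (45.5%, against 45.8% of all tested probes), more often than any other array, and Cr replicate 2 was for 39 (39.4%, against 34.2%).

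None of the 99 probes rose or fell with 5 mM Cr at an adjusted p of 0.05 or less (limma with Benjamini-Hochberg adjustment over 20308 probes), a threshold that 0.0295% of all tested probes passed, 0.00492% as higher and 0.0246% as lower. The lowest adjusted p of any member was 0.948. At an unadjusted p of 0.05 or less there were 3 probes (3.03%, against 5.04% of all tested probes), 2 of them higher, of Tpm4 and Cald1 (2.45% of all tested probes were higher), and 1 lower, of Tagln (2.6% were lower). Every Cr array lay above or below every untreated array for 5 probes (5.05%, against 10.7% of all tested probes), 2 of them higher and 3 lower (5.59% and 5.15% of all tested probes). The median log2 fold change was -0.011, with 48 probes above 0 and 51 below, and the median over all tested probes was 0.0014. Log2 fold changes are the mean of the Cr arrays less that of the untreated arrays after vsn, whose scale is nearly linear at low signal, so that differences of dim probes come out smaller. RNA of whole cultures was measured, so that fewer cells of a kind and less RNA per cell cannot be told apart.

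The intervals after vsn were narrow for most of these genes. The 95% confidence interval of the log2 fold change lay between -0.5 and 0.5 for 96 of the 99 probes (97.0%, against 98.9% of all tested probes). The exceptions were a Tpm4 and a Cald1 probe, whose intervals reached 0.57 and 0.51, and a Dstn probe, whose interval reached -0.53. On the brightest probe of each gene all 51 intervals lay within those limits, from 75.2% of untreated controls at the lowest bound to 132.4% at the highest. With neqc in place of vsn, 72 of the 99 probes had an interval between -0.5 and 0.5. With each array left out in turn, still no probe passed, and the count at an unadjusted p of 0.05 or less went both ways around that over all tested probes. It was 5 without untreated replicate 1 (5.05%, against 6.65%), 5 without untreated replicate 2 (5.05%, against 7.35%) and 6 without untreated replicate 3 (6.06%, against 4.36%). It was 7 without Cr replicate 1 (7.07%, against 4.43%), and 2 without Cr replicate 2 and without Cr replicate 3 (2.02% each, against 3.75% and 3.82%).

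**Figure D1:**
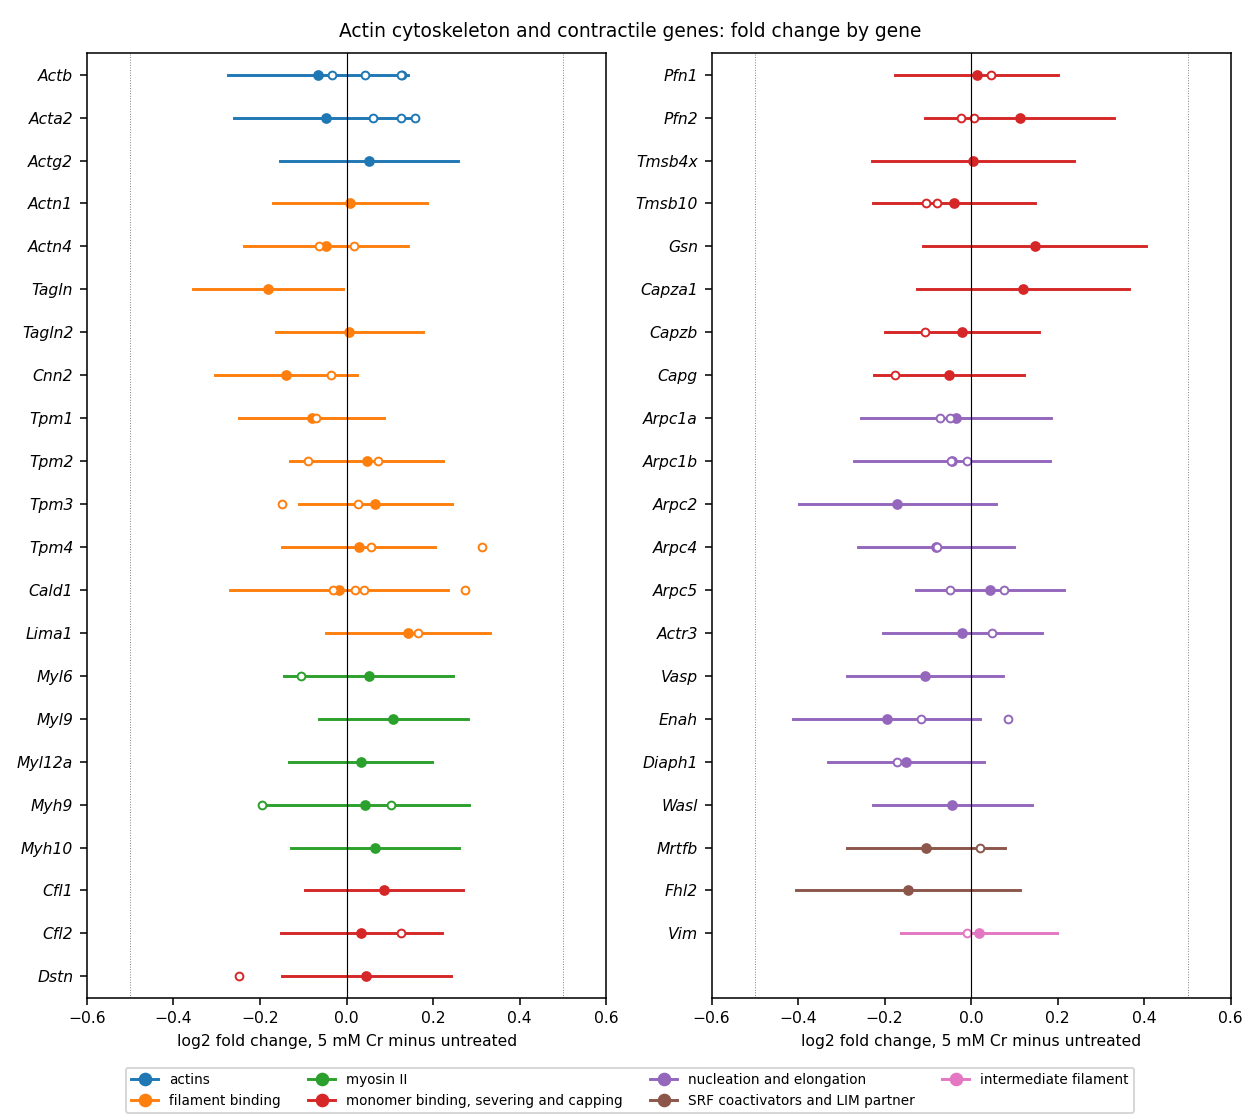
Log2 fold change (5 mM Cr minus untreated, x axis) of 43 of the genes (y axis), with a filled point and its 95% confidence interval for the brightest probe of each gene, open points for its other probes and colours for the roles of the genes. All 43 intervals lie between the dotted lines at -0.5 and 0.5, and the open points farthest from 0 are a Tpm4 probe at 0.31, a Cald1 probe at 0.27 and a Dstn probe at -0.25.

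The actins themselves did not pass the test. Actb encodes the β-actin of all cells and Acta2 and Actg2 the α- and γ-actins of smooth muscle, of which fibroblasts under tension also make the former. On Actb probe ILMN_2698799 the normalized values were 15.34, 15.45 and 15.68 in untreated controls and 15.50, 15.47 and 15.31 with Cr. The groups overlapped, with untreated replicate 3 as the highest array and Cr replicate 3 as the lowest. The log2 fold change was -0.066 (standard error 0.10, limma adjusted p = 0.994), and its sign turned to 0.031 without untreated replicate 3. The other Actb probes had log2 fold changes of -0.035, 0.042, 0.12 and 0.13, the last 2 on dim probes that were detected on 4 and 3 of the 6 arrays.

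Acta2 had 4 probes, all detected on every array. On probe ILMN_2693895 the values were 15.41, 15.49 and 15.78 in untreated controls and 15.60, 15.49 and 15.43 with Cr. The arrays overlapped, as for Actb, with untreated replicate 3 highest. The log2 fold change was -0.048 (standard error 0.10, limma adjusted p = 0.995), 0.061 without untreated replicate 3, and 0.0092 both with neqc and with quantile normalization of the log2 signals. On probe ILMN_2710354 the values were 14.03, 14.03 and 14.07 in untreated controls and 14.13, 14.18 and 14.19 with Cr. Here the groups did not overlap, the Cr arrays being higher, and the log2 fold change was 0.13 (standard error 0.08, limma adjusted p = 0.986). Probe ILMN_2710353 had the largest log2 fold change of the Actb, Acta2 and Actg2 probes, 0.16 (standard error 0.09, limma adjusted p = 0.986). Its values were 13.47, 13.40 and 13.25 against 13.53, 13.46 and 13.60. Untreated replicate 1 stood just above Cr replicate 2 there, which is the whole of the overlap. The remaining Acta2 probe had 0.062. For Actg2 the values were 10.09, 10.41 and 10.18 against 10.16, 10.36 and 10.29. Its log2 fold change of 0.051 (standard error 0.10, limma adjusted p = 0.995) turned to -0.017 without untreated replicate 1. Coding sequences of the actins are similar, and the probe sequences were not used here, so signal of another actin on these probes was not tested.

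The brightest probes need to be read with their raw signals. A total of 11 probes of 8 of these genes had a signal of 20000 or more on all arrays, where the highest signal of any probe on any array was 53580. The raw signals of Acta2 probe ILMN_2693895 ran only from 46289 to 48688 over the 6 arrays, and those of Actb probe ILMN_2698799 from 42590 to 46613. Normalization multiplied untreated replicate 3 by the largest relative scale, 1.19, and untreated replicate 1 by the smallest, 0.892. Of the 11 probes, 6 had their highest normalized value on untreated replicate 3. The part of scanner saturation in these values was not tested.

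**Figure D2:**
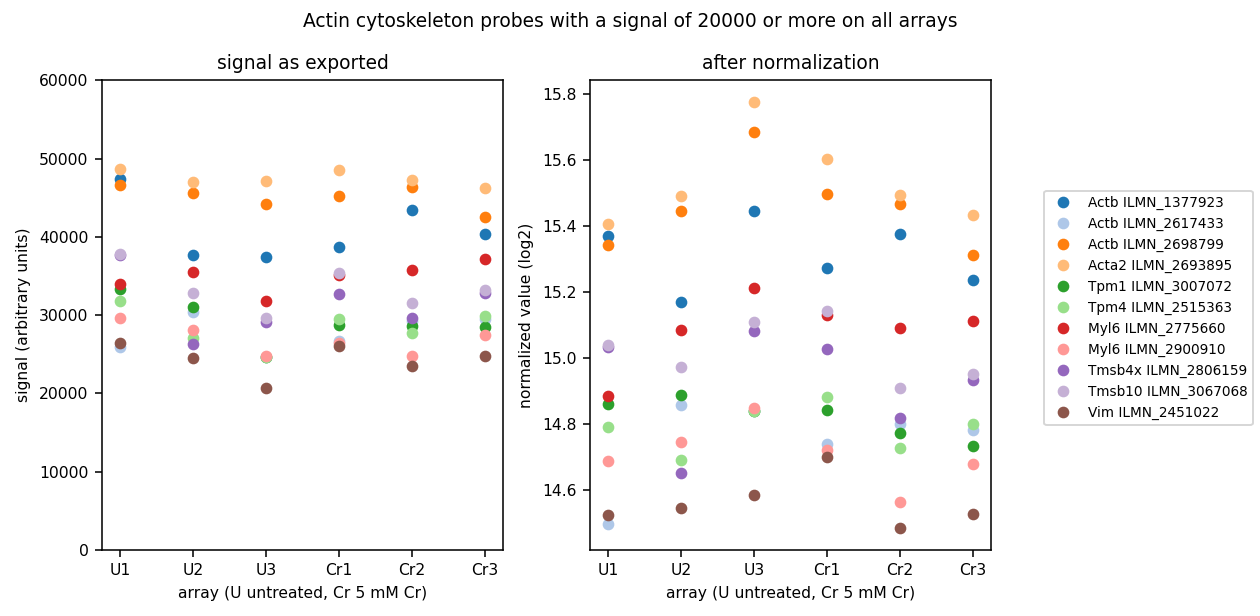
Signal as exported (left, arbitrary units) and normalized value (right, log2) on each of the 6 arrays (x axis) for the 11 probes with a signal of 20000 or more on all arrays, 1 colour per probe. The Acta2 probe at the top stays between 46289 and 48688 on the left, and on the right it is highest, at 15.78, on untreated replicate 3.

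Genes whose products bind along the filament were 11 with 26 probes, with a median log2 fold change of 0.012 and with 15 probes above 0 and 11 below, or 10 and 16 without Cr replicate 1, when the median was -0.026. The 3 probes of Tpm4 and Cald1 (higher) and Tagln (lower) that had an unadjusted p of 0.05 or less are among the 26, where 5.04% of all tested probes had such a p. Tagln encodes transgelin, also known as SM22, which bundles actin in smooth muscle and fibroblasts. Its values were 10.30, 10.21 and 10.35 in untreated controls and 10.12, 10.04 and 10.15 with Cr. All Cr arrays were below all untreated arrays, at a log2 fold change of -0.18 (standard error 0.08, 95% confidence interval -0.35 to -0.0075, limma adjusted p = 0.962). Across the 16 settings the Tagln value stayed between -0.22 and -0.15. Cnn2 encodes a calponin, an actin-binding protein that restrains myosin. Its probe ILMN_1226666 had 10.94, 10.98 and 10.95 against 10.82, 10.83 and 10.79. These groups did not overlap either, and the log2 fold change was -0.14 (standard error 0.08, limma adjusted p = 0.986), whereas the other Cnn2 probe had -0.035 and groups that overlapped.

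Tropomyosins lie along the filament and decide which other proteins reach it, and caldesmon, the product of Cald1, inhibits the myosin ATPase. Tpm4 probe ILMN_2571616 had the largest log2 fold change of all 99 probes, 0.31 (standard error 0.12, limma adjusted p = 0.948). Its values were 8.29, 8.77 and 8.66 in untreated controls and 8.73, 9.07 and 8.87 with Cr. Untreated replicate 1 was far below the other arrays and Cr replicate 1 was below untreated replicate 2. Without untreated replicate 1 the log2 fold change was 0.17. The other Tpm4 probes, including the brightest, had 0.028 and 0.057. On Cald1 probe ILMN_2804261 the values were 9.01, 8.76 and 8.65 against 9.12, 8.88 and 9.25. Untreated replicate 1 was above Cr replicate 2, and the log2 fold change was 0.27 (standard error 0.11, limma adjusted p = 0.948) with all arrays and 0.38 without untreated replicate 1. The other 4 Cald1 probes lay between -0.031 and 0.040. The brightest probes of Tpm1, Tpm2 and Tpm3 had log2 fold changes of -0.080, 0.046 and 0.066, and a dim Tpm3 probe at -0.15 was lower on all Cr arrays.

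The α-actinin genes were close to even between the groups. Actn1 had values of 13.88, 13.84 and 13.85 in untreated controls and 13.99, 13.80 and 13.80 with Cr, with Cr replicate 1 as the highest array. Its log2 fold change was 0.0080 (standard error 0.08, 95% confidence interval -0.17 to 0.19, limma adjusted p = 0.997). Actn4 probe ILMN_2673599 had 11.27, 11.20 and 11.06 against 11.25, 11.05 and 11.08. These groups overlapped, and the log2 fold change was -0.047 (standard error 0.09, 95% confidence interval -0.24 to 0.14, limma adjusted p = 0.995). The other Actn4 probes had -0.064 and 0.016. Tagln2, the transgelin of non-muscle cells, had 0.0066. Lima1, which encodes the filament-bundling LIM protein EPLIN, had 0.14 and 0.16 on its 2 probes, with groups that overlapped on both.

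**Figure D3:**
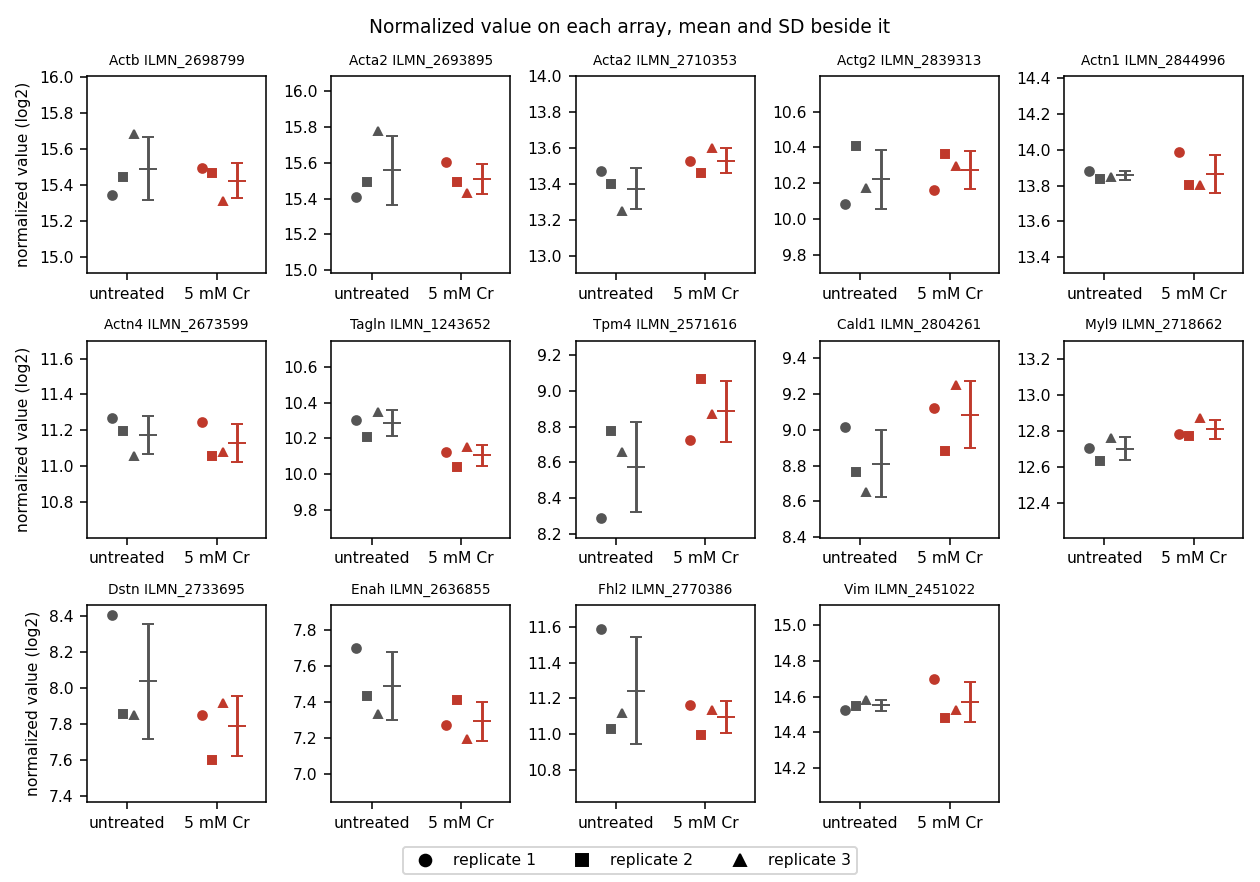
Normalized value (y axis, log2, each panel spanning the same range) of 14 probes in untreated controls (grey) and with 5 mM Cr (red), with a circle, square or triangle for replicates 1, 2 and 3 and the mean ± SD beside them. Tagln has all Cr arrays below all untreated arrays, Myl9 all of them above, and in Tpm4, Dstn and Fhl2 untreated replicate 1 lies apart.

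Myosin II is the motor that pulls on the filaments, built from heavy chains, of which Myh9 and Myh10 encode the non-muscle forms, and light chains. Of 8 probes of 5 genes 6 were above 0 and 2 below, with a median log2 fold change of 0.046, and without untreated replicate 1 there were 4 on each side. Myl9, which encodes the regulatory light chain that is phosphorylated to start contraction, had values of 12.70, 12.63 and 12.76 in untreated controls and 12.78, 12.77 and 12.87 with Cr. Every Cr array was above every untreated array by a small margin, at a log2 fold change of 0.11 (standard error 0.08, 95% confidence interval -0.063 to 0.28, limma adjusted p = 0.986). The regulatory light chain gene Myl12a had 0.033, and the essential light chain gene Myl6 had 0.051 and -0.11 on its 2 probes, the former on the brighter. The brightest Myh9 probe had 0.041 and Myh10 had 0.065. A dim Myh9 probe was detected on 1 untreated array and on no Cr array. It was taken in only through that array, so no direction is read from it. Its log2 fold change was -0.20 (standard error 0.10, 95% confidence interval -0.42 to 0.028, limma adjusted p = 0.986).

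Proteins that hold monomers, cut filaments or cap their ends came from 11 genes with 20 probes, 11 above 0 and 9 below, with a median log2 fold change of 0.0059. The groups of arrays separated on none of these probes (10.7% of all tested probes). The largest value was that of Dstn, which encodes destrin, a filament-cutting relative of cofilin, on probe ILMN_2733695. The values were 8.40, 7.85 and 7.85 in untreated controls and 7.85, 7.60 and 7.92 with Cr. Untreated replicate 1 stood above all other arrays, and the log2 fold change of -0.25 (standard error 0.13, limma adjusted p = 0.986) went to -0.064 without it. The brighter Dstn probe had 0.046. Cofilin itself, from Cfl1, had 0.086, and the muscle cofilin Cfl2 had 0.13 and 0.034. Pfn1, which encodes the profilin that feeds monomers to growing ends, had 0.013 and 0.046, and Pfn2, another profilin gene, had 0.11 on the brightest of its 3 probes. Tmsb4x and Tmsb10 encode thymosins that keep monomers in store. Tmsb4x had values of 15.03, 14.65 and 15.08 against 15.03, 14.82 and 14.93, with untreated replicate 2 as the lowest array and a log2 fold change of 0.0042. The 3 Tmsb10 probes had -0.039, -0.078 and -0.11. Gsn, which encodes the calcium-dependent cutting protein gelsolin, had 8.57, 9.17 and 8.86 against 8.97, 9.10 and 8.98. The low array was again untreated replicate 1, and the log2 fold change of 0.15 had a standard error of 0.12 (limma adjusted p = 0.986) and went to -0.00091 without that array. The capping protein genes Capza1, Capzb and Capg had 0.12, -0.020 and -0.052 on the brightest probe of each, and Capza1 went to -0.017 without untreated replicate 1.

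Most probes of the genes that start and lengthen filaments were slightly below 0. Of 21 probes of 10 genes 17 were below 0 and 4 above, with a median log2 fold change of -0.049, beside 10030 of 20308 below 0 among all tested probes. With an array left out, 13 to 17 of the 21 were below 0, the fewest without Cr replicate 2. None of the 21 reached an unadjusted p of 0.05 or less and on none did the groups separate (5.04% and 10.7% of all tested probes). None passed at an adjusted p of 0.05, so no member is called lower. Arpc1a, Arpc1b, Arpc2 and Arpc4 encode subunits of the complex of actin-related proteins that branches filaments. The 3 Arpc1a probes lay between -0.073 and -0.035, the 3 Arpc1b probes between -0.047 and -0.011, and both Arpc4 probes at -0.082 and -0.078. Arpc2 had values of 12.87, 12.55 and 12.56 in untreated controls and 12.63, 12.30 and 12.53 with Cr. Its lowest array was Cr replicate 2 and its highest untreated replicate 1, at a log2 fold change of -0.17 (standard error 0.11, 95% confidence interval -0.40 to 0.057, limma adjusted p = 0.986), which went to -0.065 without untreated replicate 1. Arpc5 went the other way on its brightest probe, at 0.044, and Actr3 had -0.021 on its brightest probe, its other probe being detected on 1 array. Enah encodes a protein of the family that protects growing ends from capping. Its probe ILMN_2636855 had 7.70, 7.44 and 7.33 against 7.27, 7.41 and 7.20. The groups overlapped, and the log2 fold change was -0.20 (standard error 0.10, limma adjusted p = 0.986), or -0.090 without untreated replicate 1 and -0.39 with neqc. The other Enah probes had 0.085 and -0.12, and all Enah probes were dim, with signals from 177 to 264. Vasp, of the same family, had -0.11. Diaph1, whose product, a formin, makes unbranched filaments, had -0.15 and -0.17, and Wasl, which encodes the activator of branching N-WASP, had -0.043.

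The binding sequence of SRF, the CArG box, is CC and GG around 6 bases that are each A or T. Its reverse complement is also a CArG box, so 1 search covers both strands, and it was searched in RefSeq promoters of build GRCm38.p6, from 250 bases before to 50 after the start. It was found for 8 of the 54 listed genes with a promoter in the table (14.8%, against 1.81% of 27025 genes). A match is a description of the letters and not of binding. Windows of 6 of the 7 measured members with a box and of Srf itself are shown so that the letters stand beside the values that follow, with the box in capitals. The box begins 250 bases before the start in Arpc4, 56 in Cnn2, 31 in Fhl2, 47 in Lima1, 50 in Myl6 and 161 in Myl9, and Srf has 2 boxes, 82 and 62 bases before. Another Fhl2 promoter has a box 96 bases before its own start, and its window is not shown.
Arpc4, chr6:113377863-113377897, + strand: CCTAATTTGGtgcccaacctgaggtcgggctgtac
Cnn2, chr10:79988519-79988578, + strand: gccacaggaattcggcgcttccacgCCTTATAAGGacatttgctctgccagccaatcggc
Fhl2, chr1:43163962-43164017, - strand: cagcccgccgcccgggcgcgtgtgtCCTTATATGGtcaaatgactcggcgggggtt
Lima1, chr15:99820162-99820221, - strand: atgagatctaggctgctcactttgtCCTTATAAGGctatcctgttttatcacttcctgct
Myl6, chr10:128493025-128493084, - strand: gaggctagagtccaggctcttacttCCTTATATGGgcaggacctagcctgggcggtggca
Myl9, chr2:156775278-156775337, + strand: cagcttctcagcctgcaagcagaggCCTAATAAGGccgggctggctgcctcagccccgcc
Srf, chr17:46556190-46556269, - strand: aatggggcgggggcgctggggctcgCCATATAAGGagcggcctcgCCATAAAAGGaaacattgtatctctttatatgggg

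The genes with a box did not share a direction. Of 7 with a measured probe, 4 were above 0 and 3 below on the brightest probe, from -0.15 for Fhl2 to 0.14 for Lima1. Cnn2 at -0.14 and Lima1 at 0.14 have the same 10 letters in the box. Their 95% confidence intervals, -0.30 to 0.024 for Cnn2 and -0.046 to 0.33 for Lima1, both hold 0 (limma adjusted p = 0.986 for each). Whether the box bears on these values was not tested. The log2 fold change of Srf was 0.098 (standard error 0.08, 95% confidence interval -0.070 to 0.27, limma adjusted p = 0.986), with all Cr arrays above all untreated arrays. Fhl2 encodes a LIM protein that binds SRF and its cofactors. Its values were 11.59, 11.03 and 11.12 in untreated controls and 11.17, 10.996 and 11.13 with Cr. Untreated replicate 1 stood apart, and the log2 fold change of -0.15 (standard error 0.12, limma adjusted p = 0.986) turned to 0.025 without it. Mrtfb, the MRTF coactivator with a named probe, had -0.10 and 0.020 on dim probes detected on 5 and 3 arrays.

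SRF acts with MRTF on cytoskeletal genes and with ternary complex factors (TCF), which respond to ERK signalling, on immediate early genes, and both sets are listed here with earlier results of these data known. Of 24 MRTF-SRF targets 20 were measured, 10 of them among the members. None passed over all probes, 3 had an unadjusted p of 0.05 or less, all lower (2.6% of all tested probes), and 5 had groups without overlap, 2 higher and 3 lower (5.59% and 5.15% of all tested probes). With untreated replicate 3 or any of the Cr arrays left out, 1 was lower at such a p, and without untreated replicate 1 there were 2 lower and 1 higher. Their median log2 fold change was -0.038, and 0.015 without Cr replicate 3. Besides Tagln, the 3 were Ccn1, which encodes a matricellular protein, at -0.27 (standard error 0.10, limma adjusted p = 0.917), and Ankrd1, a muscle ankyrin repeat gene, at -0.18. The value of Ccn1 was -0.18 without untreated replicate 1. Of 9 TCF-SRF targets 7 were measured and none passed, 3 had an unadjusted p of 0.05 or less, all lower with groups that did not overlap (2.6% and 5.15% of all tested probes), or 5 without untreated replicate 2, and their median was -0.18. These were Egr3 at -0.56 (standard error 0.09, limma adjusted p = 0.0516), Fos at -0.47 and Junb at -0.41. Egr3 did pass in 7 of 15 alternative settings, among them the deposited processed values (limma adjusted p = 0.0234), and Fos passed with a replicate block (limma adjusted p = 0.0477). The difference between the lists was not tested.

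**Figure D4:**
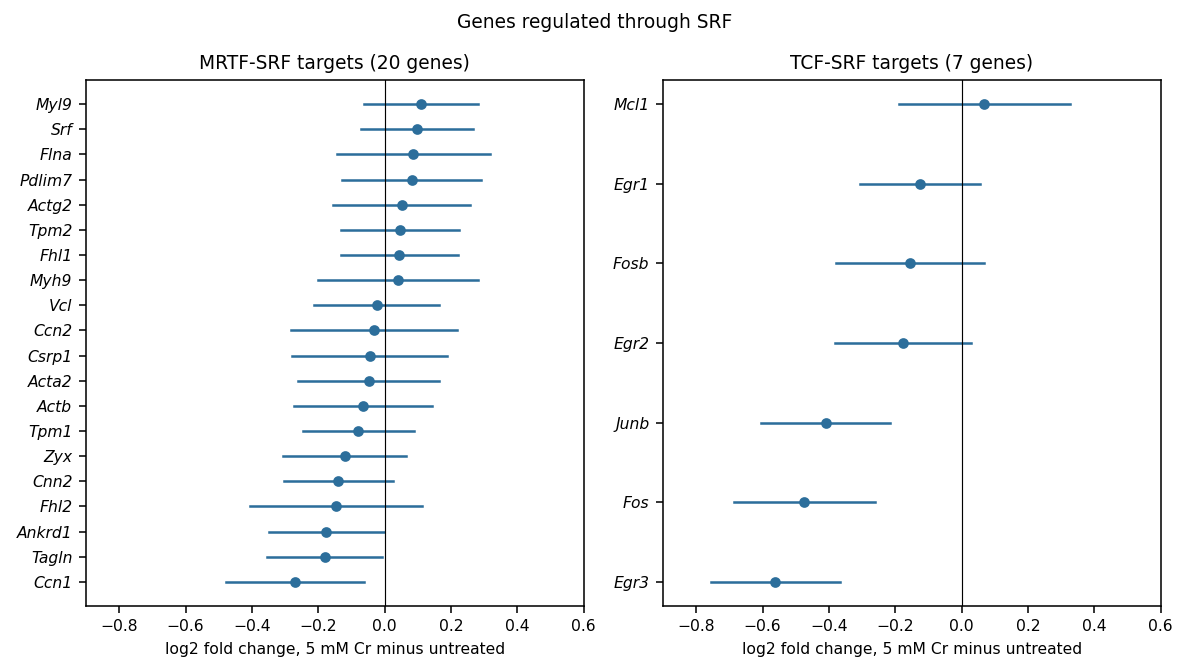
Log2 fold change (5 mM Cr minus untreated, x axis) with its 95% confidence interval for the measured MRTF-SRF targets (left, 20 genes) and TCF-SRF targets (right, 7 genes) on the brightest probe of each. The left-hand genes run from -0.27 to 0.11 and the right-hand genes from -0.56 to 0.068.

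Other filament systems and other actin regulators were measured beside these genes. Vim encodes vimentin, the intermediate filament protein of fibroblasts. Its bright probe had values of 14.52, 14.55 and 14.58 in untreated controls and 14.70, 14.48 and 14.53 with Cr, with Cr replicate 1 highest. The log2 fold change was 0.019 (standard error 0.08, 95% confidence interval -0.16 to 0.20, limma adjusted p = 0.997). Of 15 measured tubulins, lamins and related genes none passed and none had an unadjusted p of 0.05 or less (0.0295% and 5.04% of all tested probes), with a median of -0.016. The lowest p belonged to Lmnb1, which encodes lamin B1, at 0.18 (standard error 0.09) and to Nes, which encodes nestin, at -0.16 (standard error 0.08), each with a limma adjusted p = 0.985. Groups did not overlap for either, Lmnb1 being higher with Cr and Nes lower (5.59% and 5.15% of all tested probes). Of 57 measured genes among 72 other actin regulators none passed and 1 had an unadjusted p of 0.05 or less (0.0295% and 5.04% of all tested probes). Groups did not overlap for 4 that were higher and 1 that was lower (5.59% and 5.15% of all tested probes). Of the 57, 29 were above 0 and 28 below, and the median was 0.00016. The gene with an unadjusted p of 0.05 or less was Wipf1, whose product binds and stabilizes the WASP proteins. It was at 0.22 (standard error 0.08, limma adjusted p = 0.891), with all Cr arrays above all untreated arrays. Next came the cofilin kinase gene Limk2 at 0.16 (standard error 0.09, limma adjusted p = 0.986), also with all Cr arrays above all untreated arrays.

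Probes of the same gene did not always share a sign. Of the 29 genes with several probes, 14 had all probes on 1 side of 0, 4 of them above and 10 below, and 15 had probes on both sides. The median distance between the highest and the lowest log2 fold change of a gene was 0.12, and the median standard error of a probe was 0.09. With an array left out, 2 to 6 of the 29 had all probes above 0 and 7 to 12 all below. Without untreated replicate 1, Arpc1a, Arpc1b, Cnn2 and Tmsb10, whose probes otherwise all lay below 0, each had a probe above 0.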

How the data were processed

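The signal intensity of each probe was exported by the authors without background subtraction, and the deposited detection p-value ranks it against the negative control probes of its array. The deposited log2 values were made by the authors with background correction and vsn, and served as an alternative. From the signals, the vsn model (asinh of the signal, with its own offset and scaling for each array) was written out in R 4.3.3 and fitted to 45281 probes by robust regression (least trimmed squares, quantile 0.9, 7 rounds). Two-sided tests by limma 3.58.1 (lmFit, eBayes; no covariates, all 6 arrays) took in the 20308 probes that were detected, at a detection p of up to 0.05, on 1 or more arrays. P-values were adjusted over all of these probes. The smallest p of an exact permutation test of 3 arrays against 3 is 0.1, so none was run. The fit was also run on simulated arrays, and the outcome is not given here. The number of arrays limits the precision. Probes were named from the platform annotation, with 16925 probes of 1 symbol and 7 of several, which were left unnamed. The genes named in it were those with a detected probe. Symbols were compared with RefSeq of GRCm38.p6, as were the promoters. Values on all arrays are given for each probe with an unadjusted p of 0.05 or less, for the largest log2 fold change of each role on probes detected on all arrays, for Actb, Acta2, Actg2, Actn1, Actn4 and Vim, and for others chosen after their values were seen. The values of 1 role group are not reported here, though its probes stay in the counts over all members. Members, lists and rules were chosen with earlier results of these data known. Alternatives were neqc with an offset of 16, the deposited values, quantile normalization, stricter and no detection filters, 1 probe per gene, a trended robust variance, array weights, a replicate block and each array left out with the normalization kept. Without a detection filter the member probes were the same 99, as no others were named. Figures were drawn with matplotlib 3.10.9.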

Additional observations from a re-analysis of the deposited data

How the results depend on the processing

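In none of 15 alternative settings did a member probe pass an adjusted p of 0.05, and the lowest adjusted p of any of them was 0.329, for Tpm4 with the replicate block. The number of member probes with an unadjusted p of 0.05 or less was 3 (3.03%, against 5.04% of all probes). It was 0 with neqc (against 5.64%), 6 with quantile normalization of the log2 signals (6.06%, against 5.04%), 6 with the replicate block (6.06%, against 7.04%), 1 of 51 with 1 probe per gene (1.96%, against 5.55%) and 2 to 7 with an array left out. The number with groups that did not overlap was 5 (5.05%, against 10.7% of all probes). It was 7 both with neqc and with quantile normalization (7.07%, against 10.5%) and 6 with the deposited values (6.06%, against 10.7%). With 1 probe per gene it was 3 of 51 (5.88%, against 11.4%). With an array left out it was 9 to 25, where fewer arrays overlap less often (18.3% to 23.2% of all probes). The 9 were without Cr replicate 3 (9.09%, against 18.3%) and the 25 without Cr replicate 1 (25.3%, against 20.7%). The number with an interval within 0.5 was 96, against 51 of 51 with 1 probe per gene, 91 to 98 with an array left out and 72 with neqc. The median log2 fold change was -0.011 and lay between -0.030 and 0.0059 with an array left out. It was -0.030 without Cr replicate 1. Of 23 named probes 6 turned sign in at least 1 setting, all of them below 0.15 in size. Acta2 probe ILMN_2693895 was at 0.0092 with neqc and with quantile normalization and at 0.061 without untreated replicate 3. Actb was at 0.031 without untreated replicate 3, Actg2 at -0.017 and Fhl2 at 0.025 without untreated replicate 1, Actn1 at -0.00086 without untreated replicate 2 and at -0.053 without Cr replicate 1, and Vim at -0.046 without Cr replicate 1. With an array left out, the values ran from -0.12 to 0.061 for this Acta2 probe, from -0.14 to 0.031 for Actb, from -0.017 to 0.14 for Actg2, from -0.053 to 0.039 for Actn1, from -0.25 to 0.025 for Fhl2 and from -0.046 to 0.062 for Vim. The cause was not tested. The replicate numbers were not taken to pair the samples, as the paper describes a comparison of groups without stating a pairing. Deviations of same-numbered samples correlated at 0.24, 0.31 and -0.031, and those of differently numbered samples at -0.35 to 0.15. Whether the samples were paired cannot be told from these values. With the block, 14 of all probes passed, and Egr3 and Fos moved past the threshold (adjusted p = 0.0262 and 0.0477 from limma). Egr3 also passed with 6 other settings. Over all probes, 6 passed, with 0 to 15 in the alternatives. Dim probes near the detection limit and the brightest probes limit what can be seen.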
